A study of Mus musculus with 8 samples.

Results

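The miR-148 and miR-152 family consists of the guide arms mmu-miR-148a-3p, mmu-miR-148b-3p and mmu-miR-152-3p (written below without the species prefix), which are 3 of the 1281 mature miRNAs in the deposited tables. They were taken by name, and the choice was made with their levels in all 8 libraries known, so those levels are given as a description with no test. Each guide arm has 1 entry in the table. The first material was calvaria, the parietal and frontal bones of the skull vault, from female C57BL/6 mice aged 2 to 3 days that all carried Prrx1-Cre, a Cre driven by a promoter of limb and skull mesenchyme. The bones had been digested with collagenase and trypsin for 20 minutes before freezing, and 3 libraries were made. The second material was MC3T3 E1 sc4, a subclone of a mouse calvarial pre-osteoblast line, at passage 10 to 15. Its libraries were titled day 0 (undifferentiated) and days 6, 10, 17 and 24 after ascorbic acid (50 μg/ml) and β-glycerol phosphate (4 mM), with 1 library per day, each pooled from 3 cultures. The column names of days 6, 10, 17 and 24 carry the tag veh, which that of day 0 lacks. Whatever the tag stands for cannot be told apart from the change between day 0 and the later days. The labels do not say whether each calvaria library is a different animal or a pool, so any p-value here reflects library-to-library spread, which may be technical.

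MicroRNAs are cut from a hairpin precursor whose 5p and 3p strands form a duplex. One strand, the guide, is kept by an Argonaute protein and pairs with target mRNAs mainly through its seed, while the other, the passenger, is mostly degraded. In human cells the family has been reported to repress DNMT1, the maintenance DNA methyltransferase.

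The mature sequences are printed because the family is defined by them. They come from RefSeq (GRCm38.p6) and run 5′ to 3′, with the seed (bases 2 to 8) in capitals.
miR-148a-3p: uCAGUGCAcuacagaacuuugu
miR-148b-3p: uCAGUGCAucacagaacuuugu
miR-152-3p: uCAGUGCAugacagaacuugg
All 3 carry the seed CAGUGCA, and no other mature miRNA in the RefSeq table has it at bases 2 to 8. Counted from 1 at the 5′ end, miR-148a-3p differs from miR-148b-3p by C9U and U10C. miR-148a-3p differs from miR-152-3p by C9U, U10G and U20G over the 21 bases they share in length, and miR-148b-3p from miR-152-3p by C10G and U20G.

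The 3 hairpins, with the 5p arm and then the 3p arm in capitals, are shown because both arms were measured.
Mir148a: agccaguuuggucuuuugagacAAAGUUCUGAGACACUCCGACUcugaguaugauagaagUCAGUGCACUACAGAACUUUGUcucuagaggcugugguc
Mir148b: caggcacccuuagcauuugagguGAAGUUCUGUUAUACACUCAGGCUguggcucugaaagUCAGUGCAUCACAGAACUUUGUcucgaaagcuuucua
Mir152: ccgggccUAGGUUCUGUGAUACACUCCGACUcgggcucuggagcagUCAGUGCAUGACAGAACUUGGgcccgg
Mir148a lies at chr6:51269812-51269910 on the minus strand, outside annotated genes of GENCODE M21. Mir148b lies at chr15:103285125-103285221 on the plus strand, in an intron of Copz1. Mir152 lies at chr11:96850393-96850465 on the plus strand, in an intron of Copz2. Copz1 and Copz2 encode zeta subunits of the COPI vesicle coat, and both are transcribed on the same strand as the miRNA they hold.

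Library totals were 1183011 to 2023036 counts in calvaria and 2742368 to 4031962 counts in MC3T3. Levels are in RPM, read counts scaled to a common library total, and intervals are exact 95% Poisson intervals of the count. Reads carried no molecular identifiers, so intervals cover counting error only. The MC3T3 day 0 library stood apart because a single miRNA, miR-21a-5p, took 45.5% of all its reads (11.2% to 20.1% from day 6 on), which lowers every other RPM value of that library. Markers of mesenchyme, the lineage of osteoblasts, summed to 131924 to 145904 RPM in calvaria and 130003 to 187906 RPM in MC3T3. The members went different ways under these sums. Of 7 entries, 2 were called higher in calvaria by edgeR (both of miR-199a-3p), 2 lower (miR-143-3p and miR-145a-5p) and 3 neither. Over all 551 entries 32.7% were called higher and 33.8% lower. miR-143-3p alone held 50332 to 64103 RPM in calvaria and 87473 to 117479 RPM in MC3T3.

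Markers of other cell types were also measured. By edgeR, 32.7% of all 551 entries were called higher in calvaria and 33.8% lower. Both endothelial markers were called higher, with a sum of 9028 to 20323 RPM in calvaria and 6.20 to 19.0 RPM in MC3T3, where miR-126-5p was at most 1.58 RPM and under the 10-count minimum. All 4 cartilage markers were higher, with a sum of 61235 to 111611 RPM in calvaria and 18218 to 28775 RPM in MC3T3. Of 7 blood cell markers 6 passed the count minimum through the calvaria libraries, so that their higher call was largely fixed by it, and miR-486-5p was lower. The 7 had a sum of 308 to 454 RPM in calvaria and 38.9 to 111 RPM in MC3T3, where the myeloid miR-223-3p was at 0 in 4 of 5 libraries. The other lists were smaller or overlapped. Epithelial markers, of which 1 of 6 passed the count filter, summed to 17.3 to 29.6 RPM in calvaria and 2.23 to 5.47 RPM in MC3T3. Striated muscle markers summed to 283 to 642 RPM in calvaria and 213 to 574 RPM in MC3T3, a maximum set by 556 RPM of miR-206-3p at day 0. Of 6 muscle entries 4 were called higher in calvaria and none lower. These were the precursor entries of miR-1a-3p (202 to 381 RPM in calvaria, 16.1 to 88.1 RPM in MC3T3) and of miR-133a-3p (28.8 to 50.4 RPM in calvaria, 0.992 to 5.47 RPM in MC3T3). The precursor entries of each miRNA had the same fitted difference, so they are not separate results. Those of miR-133a-3p passed the count minimum through the calvaria libraries, so their higher call was largely fixed by it. Nervous system markers summed to 599 to 682 RPM in calvaria and 326 to 460 RPM in MC3T3, with no entry called and the neuronal miR-124-3p at 0 in 7 of 8 libraries. The part of these cell types in any difference given here was not tested, and in bulk tissue fewer cells of a type and less RNA per cell cannot be told apart.

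miR-148a-3p was the most abundant member in calvaria and the one that differed most between libraries. It held 47168, 64874 and 90592 RPM in calvaria 1, 2 and 3. In MC3T3 it held 1262, 13597, 18991, 15088 and 24488 RPM at days 0, 6, 10, 17 and 24. Every calvaria library lay above every MC3T3 library, with the lowest calvaria value 1.93 times the highest MC3T3 value. Over the 551 entries that passed the count filter, 35.0% had such a separation upward and 27.8% a separation downward. These shares are given as background only.

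The mean of miR-148a-3p was 67545 ± 21835 RPM in calvaria (SD, n = 3), 3.74 times the mean of MC3T3 days 6 to 24. The fitted log2 difference between calvaria and all MC3T3 libraries was 2.14 ± 0.61 (SE), and against days 17 and 24 alone it was 1.44 ± 0.35. Among mature miRNAs it ranked 7th, 3rd and 2nd in calvaria 1, 2 and 3, and 43rd, 17th, 14th, 16th and 11th over the MC3T3 days. The order of its levels was calvaria, day 24, day 10, day 17, day 6 and day 0. Neighbouring days were separated by more than their counting intervals, but without replicates their spread is not known.

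The calvaria libraries spread by a factor of 1.92 in miR-148a-3p, from calvaria 1 to calvaria 3. Calvaria 3, with the highest miR-148a-3p, also had the highest endothelial sum, 20323 RPM against 9028 RPM in calvaria 1 and 10749 RPM in calvaria 2. It had the lowest cartilage sum, 61235 RPM against 111611 and 110887 RPM. Its sums were also the highest for blood cells (454 RPM against 308 and 362 RPM), striated muscle (642 RPM against 368 and 283 RPM) and mesenchyme (145904 RPM against 139490 and 131924 RPM). For nervous system and epithelium it lay between calvaria 1 and 2. The part of these cell types in the spread was not tested.

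miR-152-3p overlapped between calvaria and differentiating MC3T3. It held 10478, 11553 and 14522 RPM in calvaria 1, 2 and 3. In MC3T3 it held 3002, 11614, 11260, 11079 and 12343 RPM at days 0, 6, 10, 17 and 24. Only day 0 lay below the calvaria range, and the 4 later days lay within it. The calvaria mean of 12184 ± 2094 RPM (SD, n = 3) differed from each of days 6 to 24 by less than 1 SD. The fitted log2 difference to all MC3T3 libraries was 0.23 ± 0.31 (SE), and it changed sign with upper quartile factors (-0.24) and against days 17 and 24 (-0.27).

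miR-148b-3p was the scarce member. It held 748, 746 and 1402 RPM in calvaria 1, 2 and 3. In MC3T3 it held 286, 1007, 610, 441 and 565 RPM at days 0, 6, 10, 17 and 24. The groups overlapped at day 6, which lay above calvaria 1 and 2. The calvaria mean was 965 ± 378 RPM (SD, n = 3), and days 6 and 10 lay within 1 SD of it. Its fitted log2 difference to MC3T3 was 0.66 ± 0.31 (SE). Calvaria 3 was the highest calvaria library for all 3 members.

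**Figure D1:**
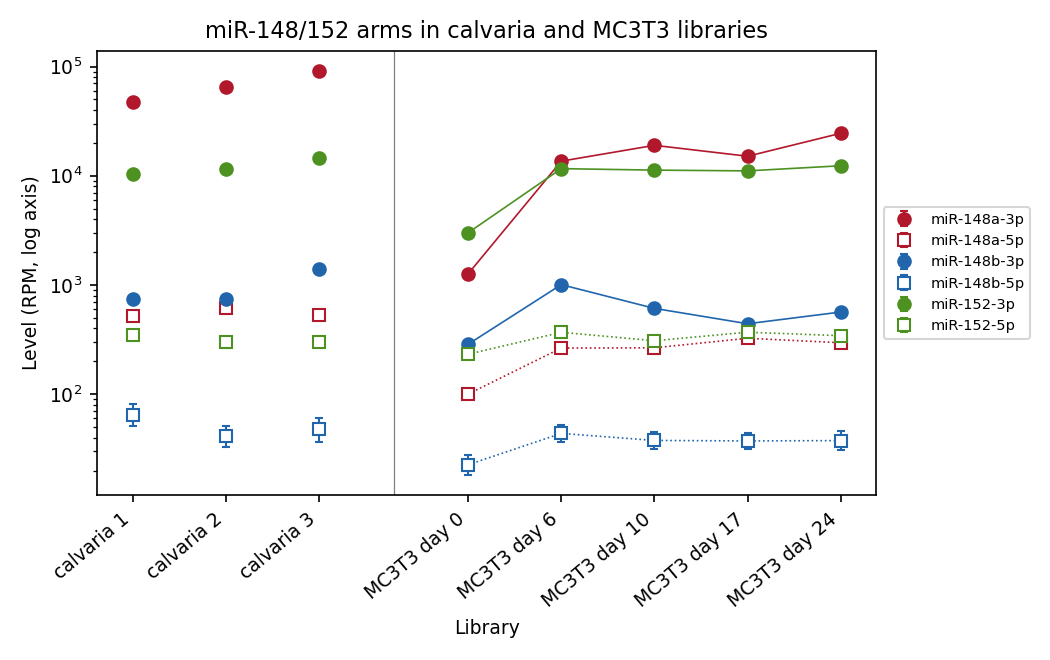
Level in RPM (log axis) of the 3p guide arms (filled circles) and 5p arms (open squares) in 3 calvaria and 5 MC3T3 libraries, with exact 95% Poisson intervals and lines joining MC3T3 days. miR-148a-3p is above all MC3T3 days in each calvaria library, from 47168 to 90592 RPM, while miR-152-3p is at 10478 to 14522 RPM in calvaria and 11079 to 12343 RPM in MC3T3 from day 6 on.

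Within the MC3T3 time course the largest step of each guide arm was from day 0 to day 6. miR-148a-3p at day 6 was 10.8 times its day 0 level in RPM (95% interval 10.5 to 11.1). miR-152-3p at day 6 was 3.87 times (3.79 to 3.95) and miR-148b-3p 3.52 times (3.29 to 3.77) the day 0 level. With miR-21a-5p left out of the library totals the same ratios were 7.35, 2.64 and 2.40, and after scaling by trimmed mean of M-values (TMM) they were 6.18, 2.22 and 2.02. The step was thus smaller, but above 1, on each of these scales.

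After day 6 the members took separate courses. miR-148a-3p at day 24 was 1.80 times its day 6 level (1.78 to 1.82), with a lower value at day 17 between higher values at days 10 and 24. miR-152-3p at day 24 was 1.06 times its day 6 level (1.05 to 1.08), or 0.976 times without miR-21a-5p in the totals. miR-148b-3p at day 24 was 0.561 times its day 6 level (0.528 to 0.597). So miR-148a-3p stood higher, miR-152-3p close to its day 6 value and miR-148b-3p lower at day 24 than at day 6, in single libraries without a replicate.

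From day 0 to day 24 as a whole the ratio was 19.4 for miR-148a-3p (18.9 to 20.0), 4.11 for miR-152-3p (4.03 to 4.20) and 1.97 for miR-148b-3p (1.83 to 2.13) in RPM. Without miR-21a-5p in the totals these were 12.2, 2.57 and 1.24, and after TMM scaling 14.1, 2.99 and 1.44. A straight line over the 5 days gave fitted 24-day log2 changes of 2.74 ± 0.94 for miR-148a-3p, 1.25 ± 0.47 for miR-152-3p and -0.01 ± 0.52 for miR-148b-3p (SE). Without the day 0 library these were 1.15, 0.43 and -0.70. Among all 469 entries of that fit, 1.28% passed as rising and 1.71% as falling.

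The make-up of the family differed between materials. miR-148a-3p supplied 80.8%, 84.1% and 85.0% of the family's counts in calvaria 1, 2 and 3. In undifferentiated MC3T3 it supplied 27.7% (exact 95% binomial interval, 27.1 and 28.4). From day 6 on its share was 51.9%, 61.5%, 56.7% and 65.5% in day order. miR-152-3p was thus the leading member at day 0, with 66.0%, and miR-148a-3p led in the other 7 libraries. The number of miR-148a-3p reads per miR-152-3p read was 5.45 ± 0.880 in calvaria (SD, n = 3), against 0.420, 1.17, 1.69, 1.36 and 1.98 over the MC3T3 days. This ratio is taken within a library, so scaling does not move it.

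miR-148b-3p supplied 1.19% ± 0.193 of the family in calvaria (SD, n = 3). In MC3T3 its share was 6.29%, 3.84%, 1.98%, 1.66% and 1.51% over the 5 days, lower on each later day. Together the 3 guide arms held 5.84%, 7.72% and 10.7% of all counts in calvaria 1, 2 and 3. In MC3T3 they held 0.455%, 2.62%, 3.09%, 2.66% and 3.74% over the days. Set among 1107 groups of mature miRNAs sharing a seed, with each miRNA that had no RefSeq match counted alone, the family ranked 5th, 4th and 2nd in calvaria 1, 2 and 3. In MC3T3 it ranked 17th, 9th, 6th, 8th and 7th.

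**Figure D2:**
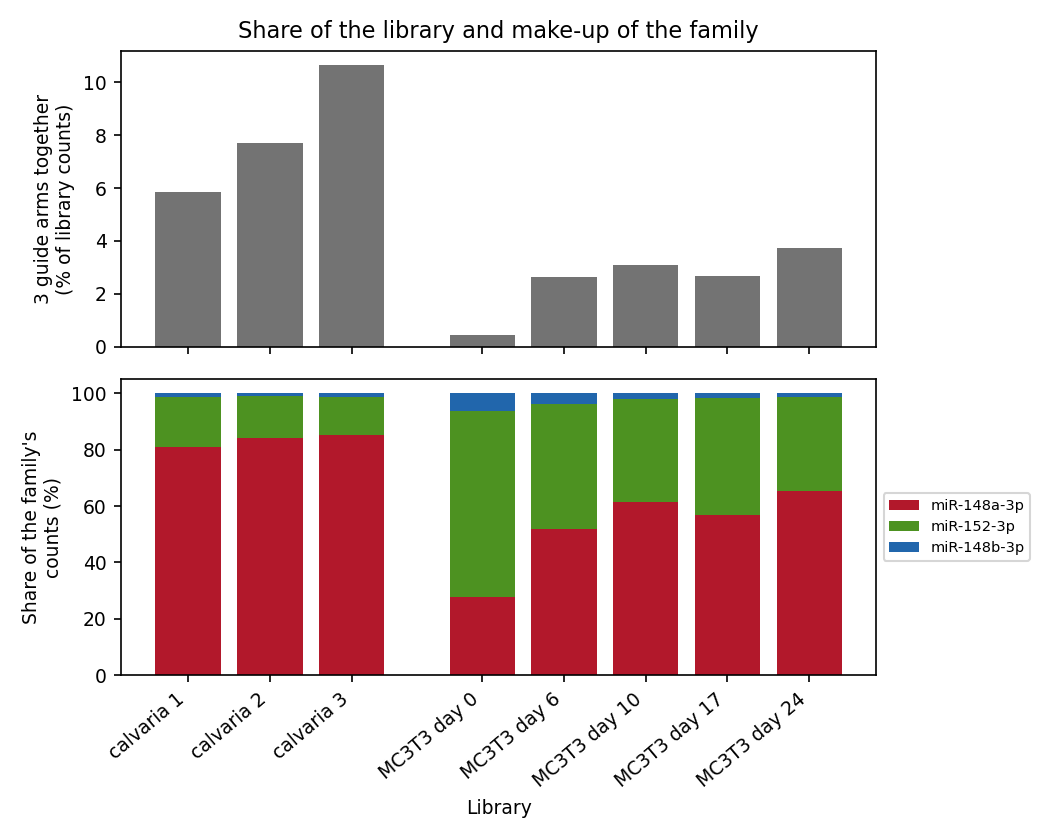
Upper bars give the share of library counts (%) held by the 3 guide arms together, and lower bars the share of the family's counts (%) from each arm, in 3 calvaria and 5 MC3T3 libraries. The family holds 5.84% to 10.7% of calvaria counts, and the miR-148a-3p portion is 80.8% to 85.0% there against 27.7% at MC3T3 day 0 and 51.9% to 65.5% later.

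The 5p arms of the same hairpins lie outside the rule and were tested in the fit over all entries, although they come from the same precursors as the guides.
miR-148a-5p: aAAGUUCUgagacacuccgacu
miR-148b-5p: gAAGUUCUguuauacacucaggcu
miR-152-5p: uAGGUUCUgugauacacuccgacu
Capitals again mark bases 2 to 8, where miR-148a-5p and miR-148b-5p share AAGUUCU and miR-152-5p has AGGUUCU. One of the 3 was higher in calvaria and none was lower, where 32.7% of all 551 entries were called higher, 33.8% lower and 66.4% in either direction (edgeR quasi-likelihood test, Benjamini-Hochberg). That split of 180 higher and 186 lower became 216 and 128 when DESeq2 size factors were used, and 143 and 251 when upper quartile factors were used.

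miR-148a-5p held 522, 612 and 530 RPM in calvaria 1, 2 and 3, and 100, 264, 266, 325 and 296 RPM over the MC3T3 days. No calvaria library overlapped with MC3T3, a separation that 35.0% of all 551 entries had upward and 27.8% downward. By edgeR miR-148a-5p was higher in calvaria, by 1.05 ± 0.26 on the log2 scale (SE; adjusted p = 0.00553), and this direction held in 3 of 3 libraries. The call was lost with upper quartile factors (log2 0.57, adjusted p = 0.0825), and over all alternatives the adjusted p ranged from 2.21e-05 to 0.0825. The 551 entries had a median of -0.13 under TMM scaling and -0.61 under upper quartile scaling. A change of scaling moves all entries by nearly the same amount. The distance of miR-148a-5p to the median is therefore nearly fixed and does not bear on the lost call. Under DESeq2 size factors the median was 0.18 and miR-148a-5p at 1.36, and under plain totals the median was 0.01 and miR-148a-5p at 1.15.

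miR-148b-5p held 65.1, 41.0 and 47.6 RPM in calvaria and 22.6, 43.7, 37.7, 37.3 and 37.6 RPM over the MC3T3 days. Its log2 difference of 0.39 ± 0.21 did not pass (adjusted p = 0.124, edgeR), but did with DESeq2 size factors (0.70, adjusted p = 0.0170), with the DESeq2 Wald test (0.70, 0.00534) and without calvaria 2 (0.76, 0.0387) or 3 (0.72, 0.0408). miR-152-5p held 349, 300 and 303 RPM in calvaria and 232, 369, 309, 369 and 343 RPM over the MC3T3 days. Its log2 difference of -0.16 ± 0.17 did not pass (adjusted p = 0.412, edgeR). It passed as lower with upper quartile factors (-0.65, 0.00732) and against days 17 and 24 (-0.49, 0.0298), and its sign changed with DESeq2 size factors (0.15). With day, none of the 3 passed in edgeR. Over 24 days miR-148a-5p had a fitted log2 change of 1.09 ± 0.40 (adjusted p = 0.157), miR-148b-5p of 0.24 ± 0.37 (0.717) and miR-152-5p of 0.21 ± 0.34 (0.748). On a log2 day scale miR-148a-5p rose in edgeR (1.20 ± 0.32, adjusted p = 0.0193), where 47 of all 469 entries rose and 56 fell.

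The number of 3p reads per 5p read, a measure of how unequally the strands of a hairpin are found, did not stay constant. For mir-148a it was 90.3, 106 and 171 in calvaria 1, 2 and 3, and 12.6, 51.5, 71.5, 46.4 and 82.8 over the MC3T3 days. For mir-152 it was 30.0, 38.5 and 47.9 in calvaria and 12.9, 31.5, 36.5, 30.0 and 36.0 over the MC3T3 days. For mir-148b it was 11.5, 18.2 and 29.4 in calvaria and 12.7, 23.0, 16.2, 11.8 and 15.0 over the MC3T3 days. At day 0 the precursors had nearly the same value. Their 5p share there was 7.36% (exact 95% interval 6.68 to 8.08) for mir-148a, 7.31% (5.92 to 8.89) for mir-148b and 7.18% (6.74 to 7.63) for mir-152. From day 6 on mir-148a was highest and mir-148b lowest in every MC3T3 library, as in calvaria.

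**Figure D3:**
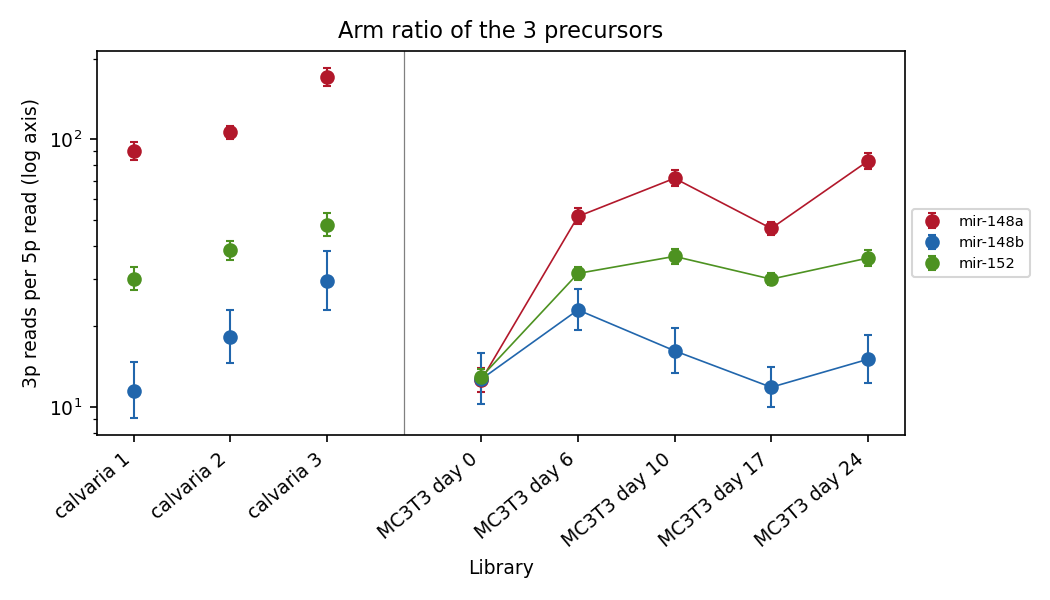
3p reads per 5p read (log axis) for the precursors mir-148a, mir-148b and mir-152 in 3 calvaria and 5 MC3T3 libraries, with bounds from exact 95% binomial intervals of the 5p share and lines joining MC3T3 days. The precursors coincide at MC3T3 day 0, at 12.6 to 12.9, and lie apart in the other libraries, with mir-148a at 90.3 to 171 in calvaria.

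The same ratio was set beside that of other hairpins with at least 20 counts on both arms in every library, of which 25 had, like this family, more 3p than 5p reads. Between MC3T3 days 6 to 24 and day 0 the mean log2 ratio was 2.28 higher for mir-148a, 1.37 higher for mir-152 and 0.34 higher for mir-148b. The median of the 25 was -0.10, with quartiles of -0.44 and 0.40, and 0 of the 25 lay above mir-148a or mir-152. Over all 56 other hairpins with this minimum the median was -0.24, with quartiles of -0.60 and 0.41, and 22 were positive. Shifts of like size were found among those with more 5p than 3p reads. There mir-125b-2 was at 2.31, above mir-148a. A gain of the 5p arm gives a negative value, and mir-30c-2 was at -2.50 and mir-125b-1 at -1.61. Between calvaria and MC3T3 days 6 to 24 the difference was 0.94 for mir-148a and 0.19 each for mir-148b and mir-152, with a median of -0.16 over the 25 and 1 of them above mir-148a. These ratios use the guide counts that were in view when the family was chosen, so they are a description. The 5p counts of all 3 precursors were whole numbers in 8 of 8 libraries, while those of miR-148a-3p were whole in 1, and those of miR-148b-3p and miR-152-3p in 3 each (within 0.005). The labels do not say how fractional guide reads arose, and their part in the arm ratio was not tested.

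**Figure D4:**
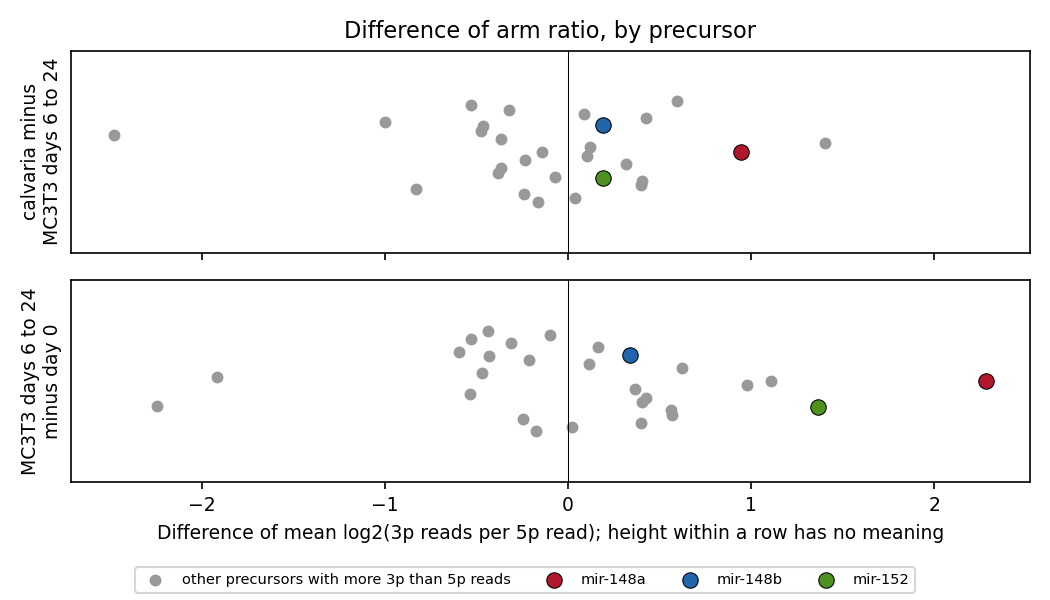
Difference of mean log2(3p reads per 5p read), for calvaria minus MC3T3 days 6 to 24 (upper row) and MC3T3 days 6 to 24 minus day 0 (lower row); grey points are the 25 other precursors with more 3p than 5p reads, and height within a row has no meaning. mir-148a is at 0.94 in the upper row and 2.28 in the lower row, where mir-152 is at 1.37 and mir-148b at 0.34.

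A related family, miR-130 and miR-301, holds the same 7 letters 1 base closer to its 5′ end, so its seed at bases 2 to 8 is AGUGCAA. Capitals here mark the letters it shares with the seed of miR-148 and miR-152.
miR-130a-3p: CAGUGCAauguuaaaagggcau
miR-130b-3p: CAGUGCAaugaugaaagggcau
miR-301a-3p: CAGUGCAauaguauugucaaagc
All 5 listed members together summed to 104 to 153 RPM in calvaria and 53.8 to 110 RPM in MC3T3, far below the 58394 to 106516 RPM and 4550 to 37396 RPM of the miR-148 and miR-152 guides. In RefSeq 7 mature miRNAs hold these letters at bases 1 to 7. Among them, miR-130c, miR-6341 and miR-6389 have entries in these data but were not listed, so the sum leaves them out. Of the 5, 3 passed the count filter, 2 of these were higher in calvaria and 1 did not pass the test (32.7% of all entries were higher), and the median log2 difference was 0.87. miR-130a-3p, its most abundant member, had a log2 difference of 0.22 ± 0.23 (adjusted p = 0.426, edgeR). miR-301a-3p was higher in calvaria (0.87 ± 0.24, adjusted p = 0.00869), a call lost with upper quartile factors (0.117) and against days 17 and 24 (0.0578). miR-130b-3p was at 9.30, 8.90 and 12.7 RPM in calvaria and at most 0.634 RPM in MC3T3 (adjusted p = 1.33e-05), so its direction was largely fixed by the filter. Left out were miR-301b-3p, at no more than 1.49 RPM in any library, and miR-721, at 0 in all. With day, neither of the 2 members tested passed, against 2.99% of all 469 entries called in either direction.

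Of 9 other miRNAs reported to target DNA methyltransferases, all of which passed the filter, 2 were higher and 6 lower in calvaria (edgeR, adjusted p under 0.05), against 32.7% and 33.8% of all entries. Their median log2 difference over 10 entries was -0.83. The miR-29 members, reported to act on DNMT3A and DNMT3B, were all lower, with miR-29a-3p at 721, 643 and 575 RPM in calvaria and 2784, 2576, 2533, 4323 and 4204 RPM over the MC3T3 days (log2 -2.51 ± 0.30, adjusted p = 3.62e-05). miR-29c-3p was at 5.92, 3.46 and 1.86 RPM in calvaria, under the 10-count minimum in each library, and at 6.90 to 20.1 RPM in MC3T3 (edgeR adjusted p = 0.00172), so its direction was largely fixed by the filter. miR-29b-3p was lower by log2 differences of -2.01 and -2.03 at its 2 precursors (0.00359 and 0.00315). miR-143-3p, of smooth muscle and mesenchyme, was lower (-1.04 ± 0.19, 0.000909). miR-185-5p (-0.62 ± 0.18, 0.0109) and miR-101b-3p (-0.50 ± 0.16, 0.0219) were lower too, but each lost the call when any 1 calvaria library was left out or when plain totals, DESeq2 size factors or limma were used (adjusted p up to 0.285 for miR-185-5p and 0.394 for miR-101b-3p). Leaving out a calvaria library also changed the entries that passed the filter (465 or 466 in place of 551) and the scaling. These changes cannot be told apart from the weight of the library itself.

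The exceptions in the other direction were miR-126-3p, an endothelial marker (10.29 ± 0.45, adjusted p = 3.89e-08, edgeR), and miR-342-3p (1.25 ± 0.22, 0.000663). miR-101a-3p did not pass (-0.25 ± 0.45, 0.643), but it was lower in calvaria when only days 17 and 24 were used (-0.99 ± 0.17, 0.00146). None of the 9 passed with day in MC3T3 by edgeR, where 1.28% of all 469 entries passed as rising and 1.71% as falling (50 and 53 entries at an unadjusted p under 0.05). The number that passed as rising was 1 by the DESeq2 Wald test, beside 20 of all 469 entries. In edgeR it was 1 with no filter (beside 14 of 855 entries), without day 10 (8 of 462) and without day 24 (11 of 467). On the log2 day scale it was 1 too, beside 47 of 469. Without the day 0 library edgeR called 3 of the 9 rising and 1 falling, beside 35 and 40 of all 459 entries then tested.

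The miRNAs with the most similar course were sought among 173 others with a mean of at least 100 RPM, by the root mean square difference of log2(RPM + 1) after centring each profile on its mean over the 8 libraries. Nearest to miR-148a-3p were miR-1a-3p of striated muscle (0.65 log2 units), miR-335-5p (0.67) and miR-199b-5p (0.85), against a median of 1.80 over the candidates. miR-335-5p held 552, 746 and 668 RPM in calvaria and 30.3, 424, 275, 409 and 365 RPM over the MC3T3 days. Nearest to miR-148b-3p were miR-23b-3p (0.28), miR-25-3p (0.33) and miR-322-5p (0.34), and nearest to miR-152-3p were miR-16-5p (0.25), miR-23b-3p (0.27) and miR-378a-3p (0.28), against medians of 0.83 and 0.81. Between members, miR-148b-3p and miR-152-3p differed by 0.45, below both of their candidate medians. miR-148a-3p differed from them by 1.32 and 1.24, below its own median of 1.80 but above theirs of 0.83 and 0.81. The nearest profiles were picked as the smallest of 173, so larger values between members say little.

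Over the 5 MC3T3 libraries alone, nearest to miR-148a-3p were miR-195a-3p (0.31), miR-146b-5p (0.35) and miR-195a-5p (0.38). miR-146b-5p held 1276, 10982, 12044, 10508 and 11866 RPM over the days, so it too had its lowest value at day 0. For miR-148b-3p they were miR-125a-5p (0.17), miR-30c-5p (0.19) and miR-322-5p (0.22), with the highest value of each at day 6. For miR-152-3p they were miR-6243 (0.21), miR-542-3p (0.22) and miR-450a-5p (0.22). The likeness of miR-6243 did not extend to calvaria, where it held 19928 to 24826 RPM against 140 to 796 RPM in MC3T3. All profiles share the same libraries and the day 0 scale, so likeness here is a description of 8 or 5 points.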

How the data were processed

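Small RNA libraries (NEBNext kit, per the labels' protocols) were analysed from the 2 deposited tables. One holds the authors' estimated counts, with a row for every pair of arm and precursor. The deposited normalized table holds RPM, which counts divided by column totals matched within 0.0127. cutadapt 0.9.5, Bowtie 0.12.7 and mm10 are named in the submitters' processing notes with no role. What counted the reads, and against which miRBase release, is not stated there. MC3T3 columns are named for days 3 earlier than the titles, which were followed.

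Expected counts were rounded. Entries needed 10 counts in at least 3 of 8 libraries (calvaria against MC3T3) or in 2 of 5 (linear day trend, 3 residual degrees of freedom). Both fits used the edgeR 4.0.16 quasi-likelihood test in R 4.3.3 with TMM factors and Benjamini-Hochberg adjustment, and a threshold of 0.05; they were tested on simulated data. The MC3T3 spread in the first fit includes the change over days. An SE is the log2 value over the root of F. DESeq2 1.42.0 and limma 3.58.1 (log2(RPM + 1)) served as alternatives, with other scalings, filters and left-out libraries. Scaling to totals without miR-21a-5p was added after seeing the data.

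The family members, lists and tests were chosen with earlier results of these data known. Named miRNAs are the family, its 5p arms, the 2 listed groups and the 3 nearest profiles. Of 1281 mature names 1029 matched RefSeq, and these hold 85.2% of counts.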

Additional observations from a re-analysis of the deposited data

How the results depend on the processing

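No paired analysis was possible because the labels give no replicate number shared between groups. For calvaria against MC3T3, 180 entries were higher and 186 lower. A minimum of 100 counts gave 85 and 87 of 280 tested, and the DESeq2 Wald test gave 222 and 109. Leaving out 1 MC3T3 day gave 176 to 202 higher and 139 to 187 lower, of 535 to 551 tested. Leaving out 1 calvaria library gave 97 to 102 higher and 95 to 113 lower, of 465 or 466 tested. The filter still asked for 10 counts in at least 3 libraries in these runs. With day, 6 entries rose and 8 fell. The DESeq2 Wald test gave 20 and 14, no filter 14 and 20, a minimum of 100 counts 2 and 2, a log2 day scale 47 and 56, and leaving out 1 day 0 to 35 and 2 to 40 (0 and 3 without day 6, 35 and 40 without day 0). Under plain totals 5 fell, with summed counts 5 and with limma 2.

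The calvaria log2 difference of miR-148a-3p kept its sign in each alternative run, at 2.65 with limma, 1.44 against days 17 and 24 and 1.88 to 2.56 with 1 library left out. That of miR-148b-3p moved by less than 1 SD of the calvaria libraries. That of miR-152-3p was 0.53 with DESeq2 size factors or the DESeq2 Wald test, -0.24 with upper quartile factors, -0.27 against days 17 and 24 and 0.07 to 0.56 with 1 library left out.

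Fitted 24-day log2 changes of miR-148a-3p, miR-152-3p and miR-148b-3p were 2.62, 1.32 and 0.01 under plain totals, 2.45, 0.99 and -0.27 under upper quartile scaling, 2.60, 1.11 and -0.16 with a minimum of 100 counts, 3.41, 1.57 and 0.31 with limma, and 3.77, 1.58 and 0.35 on a log2 day scale. With summed counts the changes were 2.64 for miR-148a-3p and 1.18 for miR-152-3p, and with no filter 1.21 for miR-152-3p. With 1 day left out they spanned 1.15 to 4.14, 0.43 to 1.81 and -0.70 to 0.33.

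Values near 0 changed sign. miR-152-5p in calvaria was at 0.15 with DESeq2 size factors or the Wald test and -0.19 to 0.15 with 1 library left out. miR-148b-5p was at -0.10 with upper quartile factors. miR-130a-3p was at -0.25 with upper quartile factors and -0.07 against days 17 and 24. miR-101a-3p was at 0.05 with DESeq2 size factors or the Wald test, 0.11 with limma and -0.45 to 0.05 with 1 library left out. With day and upper quartile factors, miR-148b-5p was at -0.01 and miR-152-5p at -0.04. The cause was not tested. Depth limits the scarce arm miR-148b-5p, with 64 to 83 counts in a calvaria library, and no MC3T3 day has a replicate.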
